A study of Rattus norvegicus with 18 samples.

Results

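The treatment by time interaction asked whether the change that MWCNT instillation brought to lung mRNA was of a different size at Year 2 than at Year 0.5. For each gene it was the MWCNT effect at Year 2, log2(MWCNT / control), minus the MWCNT effect at Year 0.5, and this log2 difference of differences is called the interaction here. It was tested on the counts of the 12 rats of these time points, and a gene was called at a Benjamini-Hochberg FDR below 0.05 by edgeR's quasi-likelihood test. Of the 22081 genes in the files, 14689 had counts high enough to be tested, and 168 were called. A positive interaction means that the ratio of MWCNT-treated to control rats was higher at Year 2, and a negative one that it was lower.

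All rats were male F344/DuCrlCrlj, an inbred Fischer strain. MWCNT-treated rats received MWNT-7, a straight and durable multiwalled carbon nanotube, at 0.5 mg/kg body weight by intratracheal instillation every 4 weeks from 9 weeks of age, and control rats received the vehicle, saline with Tween 80. The groups were control Year 0.5, MWCNT Year 0.5, control Year 2, and MWCNT Year 2, each with 3 rats, named by the time of sacrifice in years of the experiment. A piece of the accessory lobe without a visible tumor nodule was sequenced, so the values describe whole tissue of 1 lobe, which may still have held small focal lesions. Dosing went on until Year 2, so the age of the rats, the length of exposure, and the cumulative dose rose together and cannot be told apart. The 6 rats of Year 1 were not in the test and are given as a description.

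Inhaled fibers that are too long or too stiff to be digested stay in macrophages, and the persisting particles keep these cells active. Such macrophages take up lipid and debris, enlarge their lysosomes, and release proteases and mediators that draw in other leukocytes. The thin alveolar type 1 cells that carry gas exchange are easily lost in chronic injury, while type 2 cells make surfactant and replace them. Mast cells, eosinophils, and T cells take part in the long-term response, and fibroblasts deposit the matrix.

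Total counts in the 12 rats ranged from 13297643 to 21130757, with a median of 15130853, and every rat was a separate animal. Defining lung markers were high in all 12 rats, with *Sftpc* at 17721 to 35960 TPM (transcript abundance scaled for gene length and library size), *Sftpb* at 3480 to 5402 TPM, *Scgb1a1* at 10255 to 31244 TPM, and *Ager* at 1095 to 2350 TPM.

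The MWCNT effect was larger at Year 2 for most of the called genes, in both directions. The 168 called genes were 1.14% of those tested, with 109 higher at Year 2 (0.742%) and 59 lower (0.402%). The interaction exceeded 1 on the log2 scale in 24 of the higher genes and fell below -1 in 18 of the lower genes. In 88 genes the fitted ratio was above 1 at both years and higher at Year 2, and both effects passed the test in 76 of them. In 44 genes the ratio was below 1 at both years and lower at Year 2, with both effects called in 38. In 21 genes the ratio was below 1 at Year 0.5 and above 1 at Year 2, with both effects called in 8, in 12 genes it went the other way, with both called in 2, and in 3 genes a ratio above 1 at Year 0.5 was smaller at Year 2. These patterns describe only genes called for a difference between the years, without the same counts over all genes tested. For the higher genes the median MWCNT effect was 0.66 on the log2 scale at Year 0.5 and 1.43 at Year 2, and the median interaction was 0.66, with a range of 0.37 to 2.91 and a median SE of 0.127. For the lower genes the median effects were -0.52 and -1.33, and the median interaction was -0.84, with a range of -3.02 to -0.41 and a median SE of 0.161. The 3 MWCNT-treated rats lay outside the range of the 3 control rats at Year 2 in 158 of the 168 genes (94%), in the same rats that decided the call. Over all genes tested, 9276 (63.1%) were apart in this way at Year 2. In the same fit, 5610 genes (38.2%) differed between MWCNT-treated and control rats at Year 0.5 and 7627 (51.9%) at Year 2.

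**Figure D1:**
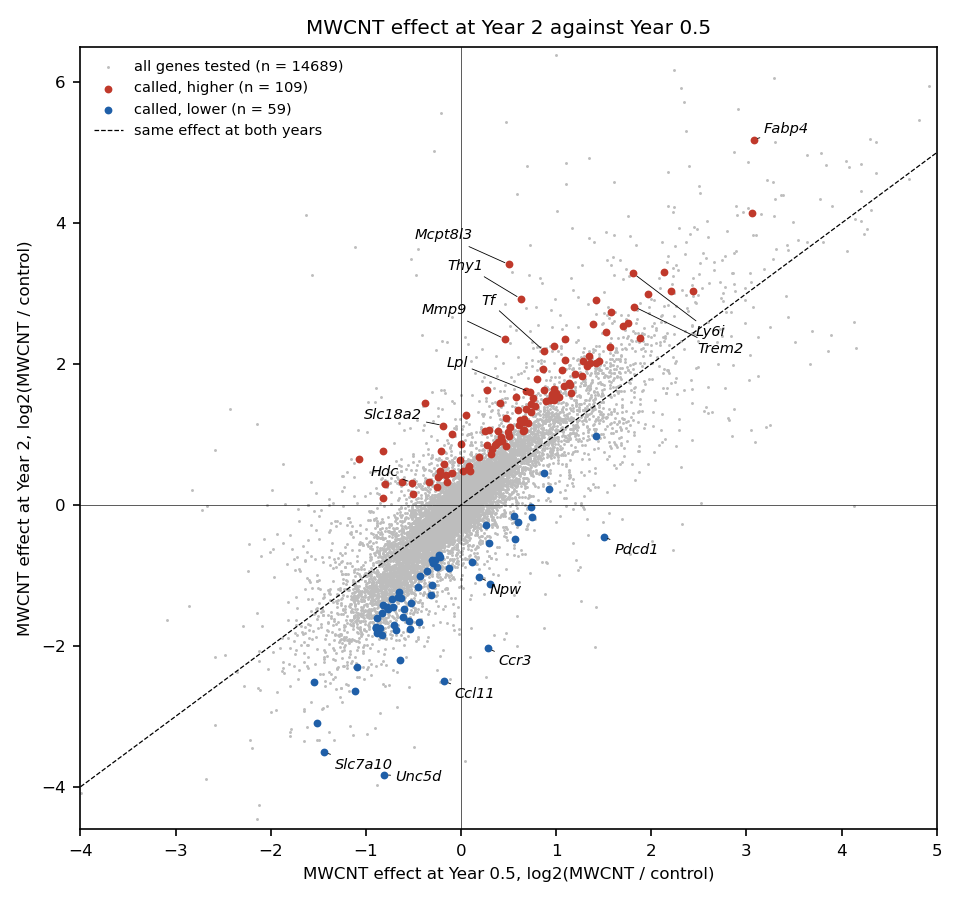
MWCNT effect at Year 2 (y axis) against the effect at Year 0.5 (x axis), both log2(MWCNT / control), for all 14689 genes tested (grey) and the 168 called genes (red higher, blue lower), with 51 uncalled genes outside the axes. The 109 red genes lie above the dashed line of equal effects, the 59 blue genes lie below it, and most called genes lie farther from 0 at Year 2 than at Year 0.5.

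The change over time was more often larger in the MWCNT-treated rats than in the control rats. Between Year 0.5 and Year 2, 1966 of the genes tested (13.4%) changed with time under MWCNT and 931 (6.34%) in the control rats, and both time comparisons share their rats with the interaction. Of the 109 higher genes, 89 changed over time in the MWCNT-treated rats and 31 in the control rats, with median changes of 0.46 and -0.21 on the log2 scale. Of the 59 lower genes, 50 changed in the MWCNT-treated rats and 15 in the control rats, with medians of -0.75 and 0.09. The change was larger in the MWCNT-treated rats in 80 of the higher genes (73.4%) and in 49 of the lower genes (83.1%). Over all 14689 genes tested it was larger in the MWCNT-treated rats in 7715 (52.5%). In 83 of the higher and 33 of the lower genes the fitted changes over time had opposite signs in treated and control rats, and both changes passed the test in 13 of the higher and 7 of the lower genes. Among all 14689 genes tested, the signs were opposite in 4969, and both changes passed in 337.

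**Figure D2:**
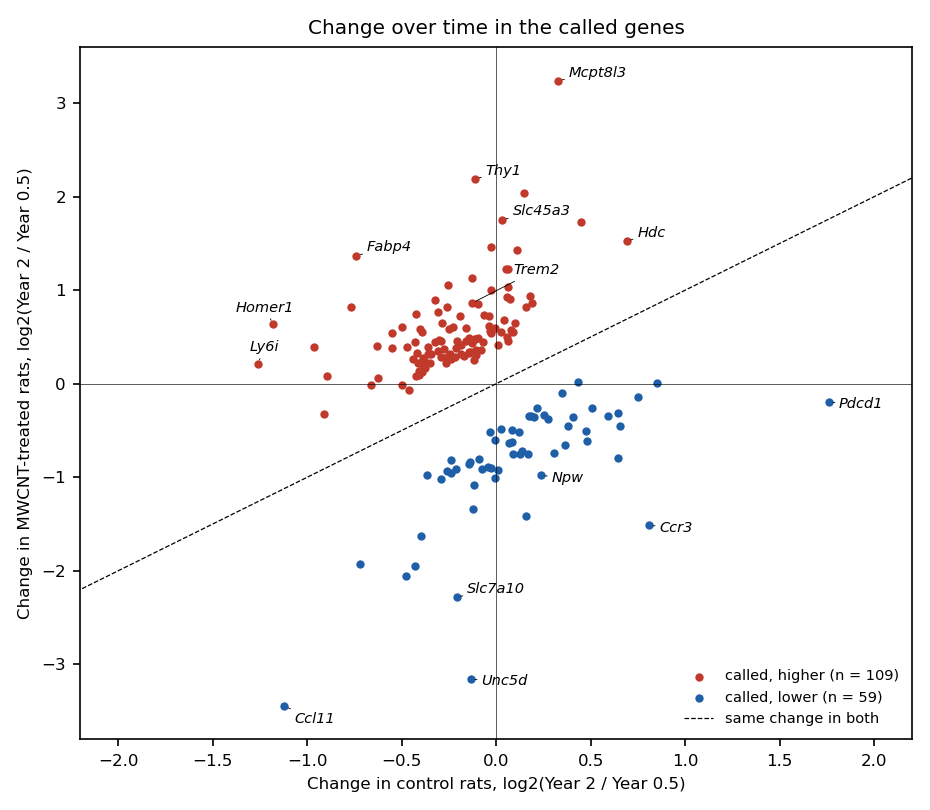
Change from Year 0.5 to Year 2 in control rats (x axis) and in MWCNT-treated rats (y axis), log2(Year 2 / Year 0.5), for the 109 higher (red) and 59 lower (blue) genes. The points spread more along the y axis, with medians of 0.46 and -0.75 in MWCNT-treated rats against -0.21 and 0.09 in control rats.

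The rats of Year 1, which the test did not use, lay between the other time points for most called genes. The MWCNT effect at Year 1 was between those of Year 0.5 and Year 2 in 101 of the 109 higher genes (92.7%) and in 50 of the 59 lower genes (84.7%), as a description of genes chosen for a wide gap between those years. In 98 of the higher and 47 of the lower genes it was nearer to Year 0.5, with median effects of 0.76 and -0.63 at Year 1. Of all genes tested, 14323 were also tested at Year 1. Their Year 1 effect was between the others in 4819 (33.6%) and nearer to Year 0.5 in 8077.

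The call of a single gene depended on single rats more than its direction did. When each of the 12 rats was left out in turn, 35 genes, 20 higher and 15 lower, were called in every fit, and the sign of the interaction was the same in every fit for all 168. The number called was 59, 88, and 79 without control Year 0.5 replicates 1, 2, and 3, and 44, 289, and 54 without MWCNT Year 0.5 replicates 1, 2, and 3. It was 77, 47, and 198 without control Year 2 replicates 1, 2, and 3, and 45, 95, and 146 without MWCNT Year 2 replicates 1, 2, and 3. The number of the 12 fits in which a gene was called is given below where the gene is described. Scaling by library size alone, without TMM factors, gave 59 higher and 87 lower genes, so the higher share of 64.9% became 40.4%, and upper quartile factors gave 69 higher and 60 lower (53.5% higher), while none of the 168 genes changed sign, and the TMM factors were 1.031 to 1.073 in control and 0.923 to 0.970 in treated rats.

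Of the 30 lists chosen with earlier results of these data known, that of lipid-laden and scavenging macrophages held the most called genes. Lists added after the values of this test were seen are not counted here. Of the 27 members of this list that were tested, 13 were higher at Year 2 and 0 lower, and the median interaction was 0.57, against 0.00294 over all genes tested. Of all genes tested, 1.14% were called, 0.742% higher and 0.402% lower, and the count of each list below stands beside these shares. *Trem2*, a receptor for lipids on macrophages, was at 49.8, 58.2, and 51.3 TPM in control and 171, 181, and 157 TPM in treated rats at Year 0.5. At Year 2 it was at 45.3, 52.3, and 47.1 TPM in control and 294, 302, and 276 TPM in treated rats. The treated rats were above the control rats at both years, and all 3 treated rats of Year 2 were above those of Year 0.5. The interaction of *Trem2* was 0.99 ± 0.12 (SE, FDR = 0.0026), and it was called in 12 of the 12 leave-one-out fits. The expression can follow the number of such cells or the mRNA of each cell, and in whole tissue these cannot be told apart.

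*Fabp4*, which carries fatty acids inside macrophages and fat cells, had a larger interaction, 2.11 ± 0.24 (FDR = 0.0033, 12 of 12 fits). Its control rats were at 30.5, 36.9, and 42.4 TPM at Year 0.5 and 16.9, 19.7, and 29 TPM at Year 2, and its treated rats were at 279.5, 315, and 239 TPM and 697, 698, and 639 TPM. The control rats fell while the treated rats rose, with time changes of -0.74 and 1.37 on the log2 scale. *Lpl*, the lipase that frees fatty acids from lipoproteins, went from 329, 303, and 315 TPM to 220.1, 234, and 246 TPM in control rats and from 486, 485, and 444 TPM to 619.6, 668, and 535 TPM in treated rats. Here too the groups did not overlap, and the interaction was 0.88 ± 0.12 (FDR = 0.00517, 12 of 12 fits). *Plin2*, the coat protein of lipid droplets, had a smaller interaction of 0.51 ± 0.11 (FDR = 0.0375, 3 of 12 fits).

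Markers of phagocytes followed the same direction at high expression levels. *Gpnmb*, a membrane glycoprotein of lysosome-rich macrophages, was at 307 to 361 TPM in the control rats and 2065 to 2796 TPM in the treated rats at Year 0.5, and at 229 to 340.3 TPM and 3782 to 4353 TPM at Year 2. *Lgals3*, the galectin released by activated macrophages, was at 1119.6 to 1434 TPM in treated rats at Year 0.5 and 2008 to 2386 TPM at Year 2, with control rats at 267 to 347 TPM and 301 to 348 TPM. Their interactions were 1.08 ± 0.21 (FDR = 0.0296, 3 of 12 fits) and 0.83 ± 0.16 (FDR = 0.0296, 4 of 12 fits). *Cd68*, a glycoprotein of macrophage lysosomes, had an interaction of 0.60 ± 0.13 (FDR = 0.0493) and was called in 2 of 12 fits. *Msr1*, a scavenger receptor, had 0.93 ± 0.17 (FDR = 0.0241, 5 of 12 fits). *Mertk*, which binds dying cells for uptake and was not in the list, went from 29.6, 35.9, and 33.5 TPM to 55.4, 47.4, and 43.9 TPM in treated rats while control rats went from 22.6, 23.7, and 22 TPM to 16.9, 18.5, and 20.4 TPM (interaction 0.94 ± 0.14, FDR = 0.00979, 12 of 12 fits). The summed TPM of the macrophage list was 6180.1 to 6537 in control and 16538 to 20193 in treated rats at Year 0.5, and 6046 to 6376 and 25712 to 29412 at Year 2.

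**Figure D3:**
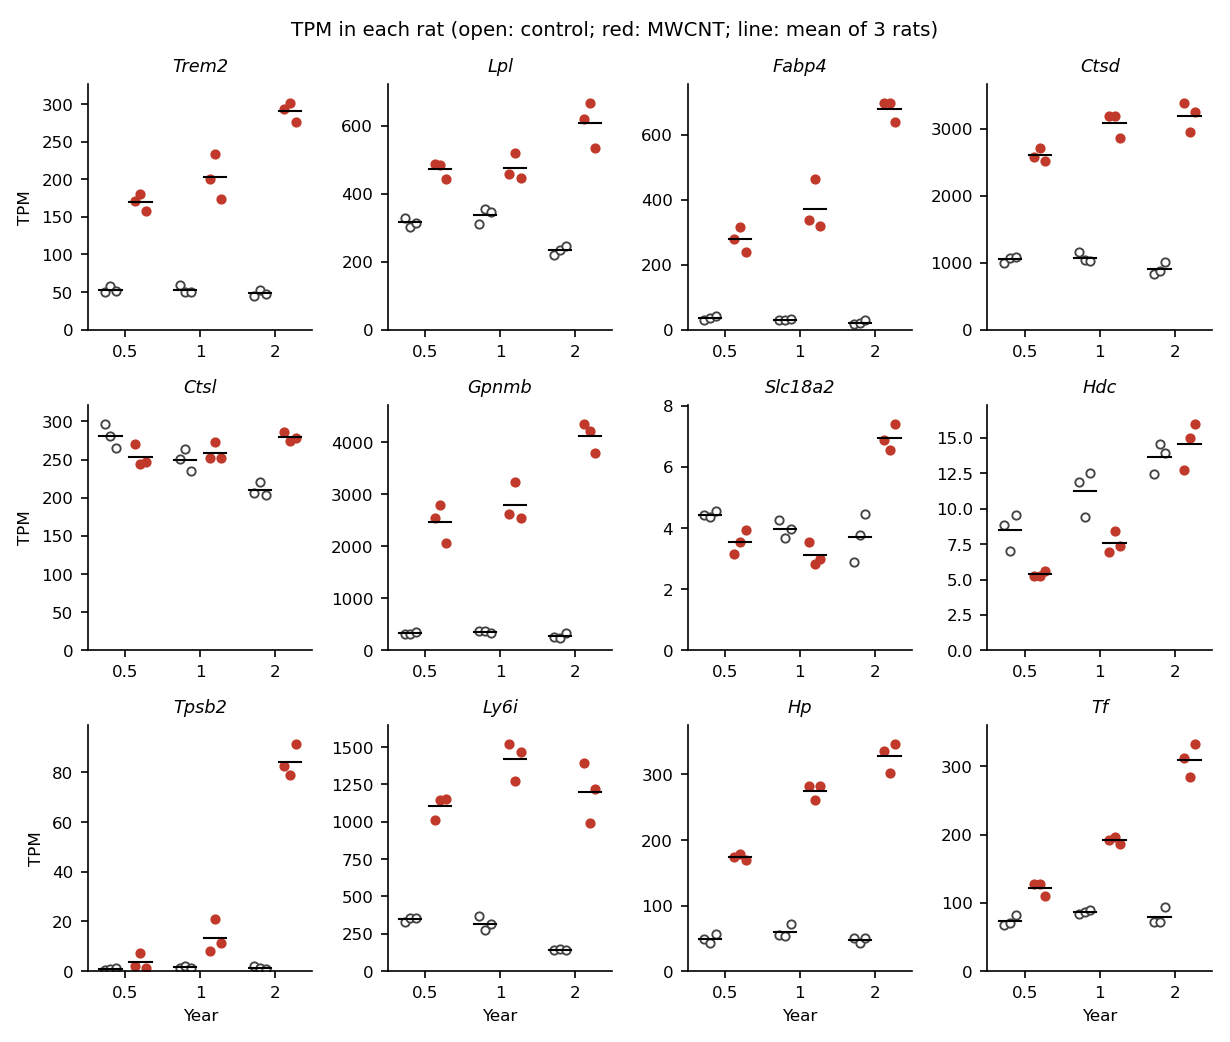
TPM of 12 genes in each rat by year, with control rats as open circles, MWCNT-treated rats as red points, and the mean of 3 rats as a line. In *Trem2*, *Lpl*, *Fabp4*, *Ctsd*, *Gpnmb*, *Hp*, and *Tf* the treated rats of Year 2 lie above those of Year 0.5, whereas in *Ly6i* the treated rats changed little and the control rats of Year 2 lie below those of Year 0.5.

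Lysosomal genes were a second group, in part the same genes. The list of lysosome genes was added after the values had been seen, and 16 of its 76 tested members were called, all higher, with 72 of 76 interactions above 0 and a median of 0.34. The members are the acid hydrolases that digest proteins, lipids, and sugars, with the membrane proteins of the organelle. *Ctsl*, a cysteine cathepsin, was at 297, 281, and 265 TPM in control rats and 269.8, 244, and 247 TPM in treated rats at Year 0.5, and at 206, 220.3, and 204 TPM and 286, 274, and 278 TPM at Year 2. Its groups overlapped at Year 0.5 and were apart at Year 2, with time changes of -0.42 on the log2 scale in the control rats and 0.23 in the treated rats (interaction 0.64 ± 0.09, FDR = 0.00912, 12 of 12 fits). *Ctsd*, the aspartic cathepsin, and *Psap*, the precursor of the saposins, were among the most abundant, with interactions of 0.59 ± 0.12 (FDR = 0.0296, 3 of 12 fits) and 0.61 ± 0.12 (FDR = 0.0296, 5 of 12 fits). *Gm2a*, the activator protein for ganglioside digestion, had the largest interaction of the list, 1.16 ± 0.18 (FDR = 0.013, 12 of 12 fits), and went from 884, 979, and 695 TPM to 1923, 2106, and 1616 TPM in treated rats. *Clcn7*, the chloride-proton exchanger of the lysosomal membrane, went from 39.6, 39.9, and 39.5 TPM to 54.1, 50.5, and 51.6 TPM with control rats at 28.1, 27.7, and 29.8 TPM and 24.4, 27.5, and 26.9 TPM (interaction 0.59 ± 0.09, FDR = 0.00979, 12 of 12 fits). The other called members were *Pld3*, *Manba*, *Lipa*, *Lgmn*, *Ctsa*, *Tpp1*, *Gaa*, *Ctsb*, *Mcoln2*, *Cd63*, and *Cd68*, with interactions from 0.41 for *Tpp1* to 0.84 for *Lgmn*. *Pld3* was called in 12 of the 12 leave-one-out fits, *Lipa* in 9, and the other 9 in 2 to 7. *Ctsa* overlaps *Pltp* and *Neurl2* in the annotation, and its reads may be shared with them.

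The upstream sequences of the called lysosome genes are shown where they hold CACGTG, the E-box hexamer, because this palindrome occurs in regulatory elements of lysosomal genes. RefSeq promoters on GRCr8, another build than that of the files, were found for 13 of the 16 called lysosome genes, and the 250 bases before the start held CACGTG in 4 of the 13 (30.8%), against 12 of the 60 lysosome genes with a promoter, called or not (20%), 7.83% of the 10906 promoters of tested genes, and 5.59% of the 33469 promoters in the table. The hexamer reads the same on both strands, it is printed in capitals, and a match describes letters, not a bound site.
*Clcn7* (chr10:14656197-14656260, plus strand): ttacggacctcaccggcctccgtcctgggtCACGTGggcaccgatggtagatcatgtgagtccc
*Ctsd* (chr1:206968822-206969008, minus strand): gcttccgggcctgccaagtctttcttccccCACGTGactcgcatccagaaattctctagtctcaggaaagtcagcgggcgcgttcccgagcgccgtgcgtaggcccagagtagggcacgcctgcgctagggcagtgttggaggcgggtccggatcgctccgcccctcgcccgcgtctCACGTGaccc
*Gaa* (chr10:105028258-105028323, plus strand): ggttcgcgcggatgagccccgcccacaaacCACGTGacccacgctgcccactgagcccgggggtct
*Cd63* (chr7:1921924-1921989, plus strand): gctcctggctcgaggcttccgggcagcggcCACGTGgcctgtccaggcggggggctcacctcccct
*Ctsd* held the hexamer at 2 places and the others at 1. Over all 168 called genes a promoter was found for 121 (72.0%), fewer than the 80% needed for a share, so that check is void. The promoters found for 60 of 76 lysosome genes and 10906 of 14689 tested genes were also fewer than 80%. No conclusion is drawn from the shares set against the 30.8%.

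In the acute phase and complement list 3 of 28 tested members were higher and 0 lower, with a median interaction of 0.51 and 5 interactions below 0. The share called higher over all genes tested was 0.742%. DESeq2 called 7 members as higher, and 293 as higher over all 14689 genes. *Hp*, haptoglobin, which binds free hemoglobin, was at 48.7, 42.2, and 56.5 TPM in control and 174, 179, and 169.9 TPM in treated rats at Year 0.5, and at 49.8, 43, and 51 TPM and 336, 303, and 346 TPM at Year 2 (interaction 1.03 ± 0.14, FDR = 0.00583, 12 of 12 fits). The control rats overlapped between the years, and the treated rats of Year 2 were all above those of Year 0.5. *Serping1*, the inhibitor of complement C1, had an interaction of 1.26 ± 0.21 (FDR = 0.0197, 9 of 12 fits), and *C3*, the central complement protein, had 1.17 ± 0.25 (FDR = 0.0496, 2 of 12 fits). In the metallothionein, iron, and NRF2 target list 5 of 24 tested members were higher and 0 lower, with a median of 0.27 and 8 interactions below 0. *Tf*, transferrin, the iron carrier of plasma, was at 67.2, 71.1, and 82.8 TPM in control and 127, 128, and 109 TPM in treated rats at Year 0.5. At Year 2 it was at 71.4, 72.2, and 93.7 TPM in control and 312, 284, and 332 TPM in treated rats (interaction 1.32 ± 0.16, FDR = 0.00272, 12 of 12 fits). *Slc11a1*, the iron exporter of phagosomes, had 0.64 ± 0.12 (FDR = 0.0232, 7 of 12 fits), and the NRF2 targets *Akr1b8*, *Ugt1a6*, and *Txnrd1* had 0.63, 0.66, and 0.40. Outside the list, and chosen after their values were seen, *Heph*, a ferroxidase, *Slc31a1*, the copper importer, and *Aco1*, the iron regulatory protein, were called at 0.76, 0.74, and 0.51. *Mt3*, a metallothionein, had a larger interaction of 2.67 ± 1.72, which did not pass (FDR = 0.542).

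Mast cell genes had the largest median of all lists, 1.80 over 13 tested members, but 2 members passed in edgeR, against 6 by DESeq2 and 1 by limma-voom, all higher. Among all 14689 genes tested, 109 were higher by edgeR, 293 by DESeq2, and 64 by limma-voom. *Slc18a2*, which loads histamine into granules, was at 4.42, 4.35, and 4.55 TPM in control and 3.14, 3.53, and 3.93 TPM in treated rats at Year 0.5, and at 2.89, 3.79, and 4.47 TPM and 6.86, 6.55, and 7.41 TPM at Year 2. The treated rats were below the control rats at Year 0.5 and above them at Year 2, and the interaction was 1.31 ± 0.22 (FDR = 0.0158, 11 of 12 fits). *Hdc*, the enzyme that makes histamine, was at 8.89, 7.0, and 9.54 TPM and 5.24, 5.27, and 5.62 TPM at Year 0.5, and at 12.4, 14.5, and 13.9 TPM and 12.7, 15, and 16 TPM at Year 2, where the groups overlapped (interaction 0.83 ± 0.18, FDR = 0.0419, 1 of 12 fits). *Mcpt8l3*, a protease of the mast cell protease family that was not in the list, had the largest positive interaction of all called genes, 2.91 ± 0.44 (FDR = 0.00979, 12 of 12 fits). It was at 0.954, 1.03, and 0.912 TPM in control and 1.09, 1.84, and 0.684 TPM in treated rats at Year 0.5, and at 1.08, 1.27, and 1.28 TPM and 10.2, 8.81, and 14.3 TPM at Year 2. *Mcpt8l3* belongs to a family of near copies, so its reads are uncertain.

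The granule proteases of mast cells and the IgE receptor chain *Ms4a2* did not pass in edgeR, although the groups did not overlap at Year 2. *Tpsb2*, a tryptase, was at 2.21, 7.28, and 1.18 TPM in treated rats at Year 0.5 and 82.6, 79, and 91.3 TPM at Year 2, with control rats at 0.618 to 1.29 TPM and 0.967 to 1.89 TPM. *Cpa3*, the mast cell carboxypeptidase, was at 2.89, 8.58, and 1.46 TPM and 58.3, 46.1, and 63.7 TPM in treated rats. *Ms4a2*, the beta chain of the IgE receptor, was at 0.889, 1.77, and 0.322 TPM and 13.7, 11.5, and 13.4 TPM in treated rats. Their interactions were 3.93 ± 1.10 (FDR = 0.14), 2.94 ± 1.06 (FDR = 0.259), and 3.16 ± 0.69 (FDR = 0.0528), and the treated rats of Year 0.5 varied several-fold among themselves. *Kit* and *Gata2*, at high levels in control lungs, had interactions of -0.27 (FDR = 0.707) and -0.51 (FDR = 0.341), opposite in sign to the granule genes.

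Matrix genes and genes of mesenchymal cells contributed single members. In the collagen and matrix list 5 of 42 tested members were higher and 0 lower, with a median of 0.28, against 11 higher by DESeq2 and 1 by limma-voom. Over all 14689 genes tested, edgeR called 109 higher, DESeq2 293, and limma-voom 64. *Col15a1*, a basement membrane collagen, was at 40.2, 41.8, and 50.1 TPM in control and 37.4, 31.9, and 34.2 TPM in treated rats at Year 0.5, and at 18.1, 27.8, and 25.1 TPM and 32.7, 35, and 35.5 TPM at Year 2. The control rats changed by -0.89 over time and the treated rats by 0.08, so the treated rats were below the control rats at Year 0.5 and above them at Year 2 (interaction 0.97 ± 0.16, FDR = 0.0185, 11 of 12 fits). *Mmp19*, a metalloproteinase, *Timp1*, an inhibitor of these enzymes, *Col8a1*, and *Fn1*, fibronectin, had 0.86, 0.68, 0.95, and 0.52, and were called in 3, 2, 3, and 1 of 12 fits. *Mmp9*, a gelatinase of neutrophils and macrophages, was the 1 called of 14 neutrophil genes, whose median was 0.33, and went from 5.49, 5.95, and 3.28 TPM to 18.1, 25.7, and 13.8 TPM in treated rats, and its interaction was 1.90 ± 0.39 (FDR = 0.0456), called in 2 of 12 fits. *Igfbp4*, which binds insulin-like growth factors, was at 291, 325, and 309 TPM and 337, 339.8, and 323 TPM at Year 0.5, and at 317, 296, and 266 TPM and 509, 542, and 514 TPM at Year 2 (interaction 0.80 ± 0.11, FDR = 0.00814, 12 of 12 fits). *Thy1*, a surface protein of fibroblasts and T cells, went from 4.81, 5.0, and 3.43 TPM to 15, 14.7, and 27.8 TPM in treated rats with control rats at 2.81 to 3.47 TPM and 2.6 to 3.27 TPM (interaction 2.30 ± 0.38, FDR = 0.0143, 12 of 12 fits). In the alveolar fibroblast and pericyte list 2 of 27 were higher, *Hsd11b1* and *Angpt1*, and 1 was lower, *Macf1*, with a median of 0.12. *Hsd11b1*, which activates glucocorticoids, had 0.65 ± 0.11 (FDR = 0.0139, 12 of 12 fits), and *Angpt1*, the ligand of the Tie2 receptor, had 0.65 ± 0.12 (FDR = 0.0197, 7 of 12 fits). The MWCNT effect of *Angpt1* was -0.50 at Year 0.5 and 0.15 at Year 2, where the groups overlapped. Its control rats changed by -0.66 over time and its treated rats by -0.0087. *Hhip*, the inhibitor of hedgehog ligands, was the 1 member of 15 smooth muscle genes that was called, with a list median of -0.10 (0.69 ± 0.12, FDR = 0.0197, 8 of 12 fits), and *Lamb3*, a laminin chain, was the 1 of 22 keratin and basal cell genes, with a median of 0.21 (0.51 ± 0.11, FDR = 0.0448, 3 of 12 fits).

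Among the other genes with the largest or surest positive interactions, *Ly6i* stood apart because its change lay in the control rats. *Ly6i*, of the Ly6 family of membrane-anchored proteins, was at 329, 357, and 356 TPM in control and 1014, 1143, and 1153 TPM in treated rats at Year 0.5, and at 141, 151, and 140.0 TPM and 1395, 990.0, and 1221 TPM at Year 2. The treated rats overlapped between the years and the control rats fell by 1.26 on the log2 scale (interaction 1.47 ± 0.16, FDR = 0.00148, 12 of 12 fits), and its family holds near copies. *Lhfpl2*, a tetraspan membrane protein, was at 10.9, 11, and 11 TPM and 17.7, 19.7, and 16.5 TPM at Year 0.5, and at 8.8, 8.46, and 9.25 TPM and 29.1, 29, and 28.2 TPM at Year 2 (interaction 1.07 ± 0.12, FDR = 0.00148, 12 of 12 fits). *Ptcd3*, which assists mitochondrial translation, went from 67.8, 82.5, and 52.6 TPM to 170.1, 204, and 155 TPM in treated rats with control rats at 26.5 to 29 TPM and 25.9 to 29.6 TPM (interaction 1.49 ± 0.21, FDR = 0.0122, 12 of 12 fits). Its neighbor *Polr1a*, 260 bases away on chromosome 4, was called as well, at 0.53. *Homer1*, *Slc45a3*, *Fcmr*, *Cd72*, and *Scara5* had interactions of 1.82, 1.72, 1.58, 1.28, and 1.22, and were called in 3, 3, 2, 3, and 1 of 12 fits. *Homer1* is a scaffold protein, *Slc45a3* a sugar transporter, and *Scara5* a scavenger receptor for ferritin. Of the other genes, *Fcmr*, the receptor for IgM, and *Cd72*, a B cell coreceptor, are known from B cells, yet 0 of the 25 tested members of the B cell and plasma cell list were called in the edgeR test, with 1 at an unadjusted p below 0.05 and a median of 0.11. Over all 14689 genes tested, 2042 were at that level. *Cd72* overlaps *Tesk1* in the annotation, and its reads may be shared with it.

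*Aldh18a1*, a proline synthesis enzyme with an interaction of 1.36 ± 0.26 (FDR = 0.0296), shared its reads with a second entry, LOC108348083. The second entry held 174, 197, and 180 counts in the control rats of Year 2 and 362 counts in 1 treated rat of Year 0.5, replicate 2, where *Aldh18a1* had 178, 191, 145, and 372 counts. The sum of both entries was 302 to 382 counts in control rats and 482 to 734 in treated rats at Year 0.5, and 325 to 388 and 533 to 545 at Year 2. In these sums, which were not scaled for library size, the ranges of Year 0.5 and Year 2 overlapped in control and in treated rats. An interaction of the summed entries was not tested. The interaction of *Aldh18a1* is therefore uncertain, although the gene is still counted among the 109 higher genes.

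Among the lower genes, 2 were T cell genes. Of the 32 tested members of the T and NK cell list, 2 were lower and 0 higher, 31 interactions were below 0, and the median was -0.56, while DESeq2 called 5 lower and 1 higher. Over all 14689 genes tested, edgeR called 59 lower and 109 higher, and DESeq2 called 247 lower and 293 higher. *Pdcd1*, the inhibitory receptor PD-1, was at 1.31, 1.5, and 1.89 TPM in control and 4.29, 3.87, and 3.9 TPM in treated rats at Year 0.5, and at 4.72, 4.48, and 6.69 TPM and 4.33, 2.59, and 2.99 TPM at Year 2. The treated rats were above the control rats at Year 0.5 and below them at Year 2, while the control rats rose by 1.76 on the log2 scale (interaction -1.96 ± 0.36, FDR = 0.0219, 10 of 12 fits). *Cd3e*, of the T cell receptor complex, had -0.90 ± 0.38 (FDR = 0.324) and *Cd8a* had -0.53 ± 0.52 (FDR = 0.719), so that these defining markers did not pass in edgeR. The summed TPM of the list was 539 to 682 in control and 431 to 479 in treated rats at Year 0.5, and 752 to 1163 and 441 to 623 at Year 2, and only the control rats were apart between the years.

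A chemokine and its receptor, both known from eosinophil recruitment, had 2 of the largest negative interactions. *Ccl11*, eotaxin, was at 11.1, 6.84, and 8.02 TPM in control and 8.05, 6.93, and 5.85 TPM in treated rats at Year 0.5, and at 4.3, 4.47, and 3.04 TPM and 0.625, 0.659, and 0.474 TPM at Year 2. The groups overlapped at Year 0.5 and were far apart at Year 2 (interaction -2.33 ± 0.43, FDR = 0.0222, 7 of 12 fits). *Ccr3*, the receptor of eotaxin, was at 1.55, 2.61, and 2.03 TPM and 2.27, 2.21, and 2.34 TPM at Year 0.5, and at 4.04, 3.18, and 3.51 TPM and 0.971, 0.613, and 0.663 TPM at Year 2 (interaction -2.32 ± 0.35, FDR = 0.00979, 12 of 12 fits). In the list of eosinophil and type 2 genes, added after the values had been seen, these were the 2 called of 11 tested, both lower, and the median was 0.12. *Cxcl17*, a mucosal chemokine, was the other called member of 31 chemokine genes, whose median was -0.08. It was at 245, 226, and 229.9 TPM in control and 388, 412, and 402 TPM in treated rats at Year 0.5, and at 202, 196, and 203 TPM and 219, 188, and 196 TPM at Year 2, where the groups overlapped (interaction -0.69 ± 0.10, FDR = 0.00979, 12 of 12 fits). *Ackr4*, a receptor that removes chemokines, went from 10.2, 7.04, and 14.4 TPM to 2.51, 2.81, and 2.32 TPM in treated rats, with control rats at 24.4 to 25.4 TPM and 15.2 to 21.6 TPM (interaction -1.52 ± 0.30, FDR = 0.0296, 3 of 12 fits). *Ackr4* overlaps *Acad11* in the annotation, and its reads may be shared with it.

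**Figure D4:**
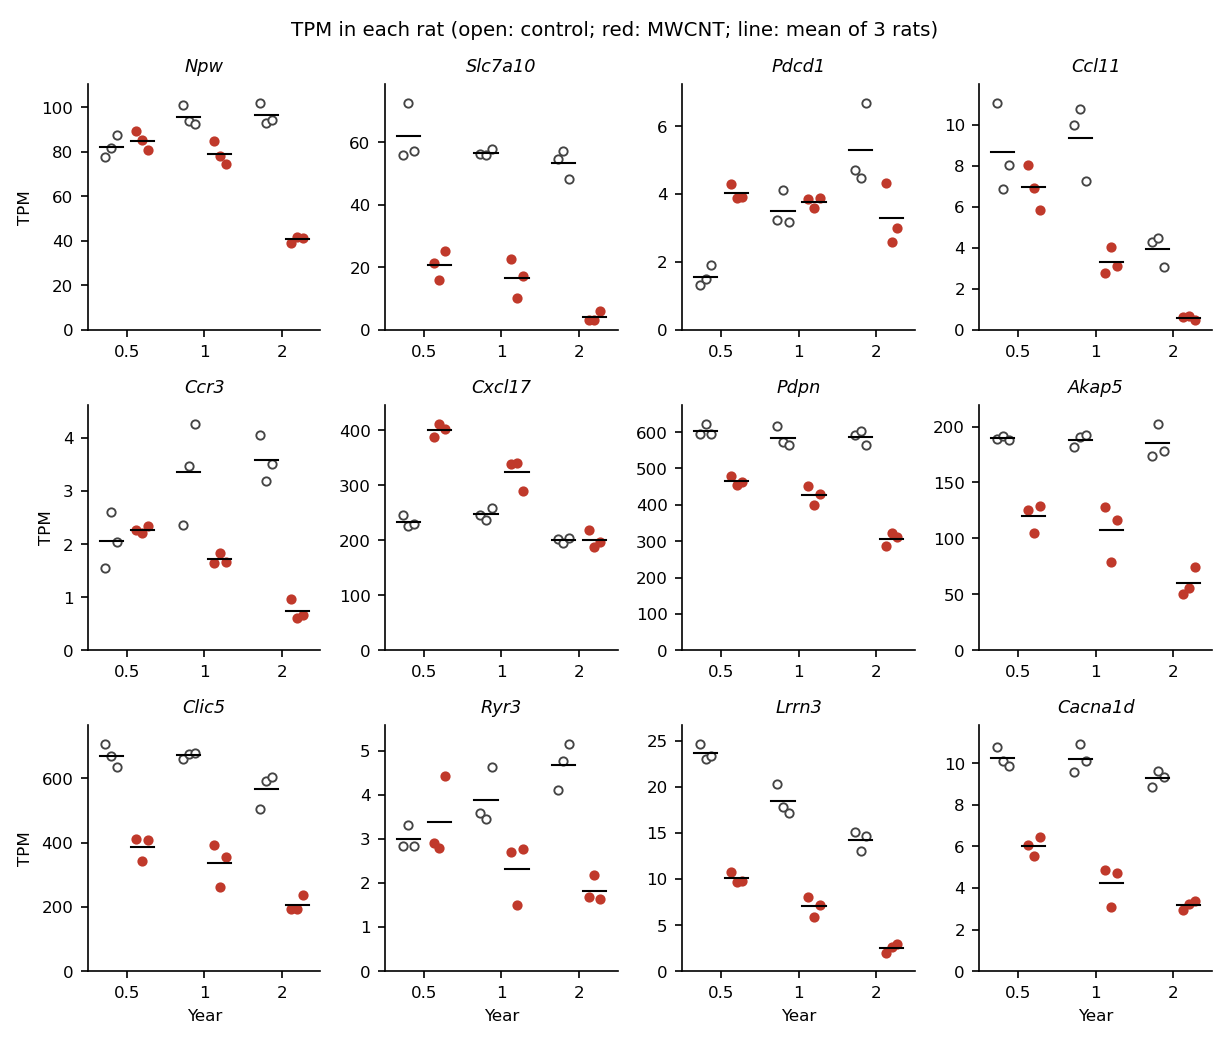
TPM of 12 genes in each rat by year, with control rats as open circles, MWCNT-treated rats as red points, and the mean of 3 rats as a line. In *Npw*, *Ccl11*, and *Ccr3* the groups overlap at Year 0.5 and the treated rats lie below the control rats at Year 2, whereas in *Cxcl17* the treated rats lie above the control rats at Year 0.5 and overlap with them at Year 2.

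In the alveolar type 1 list, 3 genes that MWCNT lowered at Year 0.5 were lower still at Year 2. Of 23 tested members these 3 were called lower and 0 higher, 22 interactions were below 0, and the median was -0.47. *Pdpn*, a membrane protein of type 1 cells and lymphatic vessels, was at 596, 623, and 593 TPM in control and 480.1, 455, and 462 TPM in treated rats at Year 0.5, and at 592, 602, and 564 TPM and 288, 322, and 311 TPM at Year 2. *Akap5*, a scaffold for protein kinase A, was at 126, 105, and 129 TPM and 50.2, 55.8, and 74.8 TPM in treated rats, with control rats at 188 to 191 TPM and 174 to 203 TPM. *Clic5*, a chloride channel protein, was at 412, 342, and 408 TPM and 194, 193, and 236 TPM in treated rats, with control rats at 637 to 706 TPM and 506 to 605 TPM. In all 3 genes the treated rats were below the control rats at both years and lower at Year 2, with interactions of -0.48 ± 0.09 (FDR = 0.0219, 7 of 12 fits), -0.88 ± 0.16 (FDR = 0.0241, 3 of 12 fits), and -0.58 ± 0.13 (FDR = 0.0478, 2 of 12 fits). The other members did not pass in edgeR, and *Cav1* had -0.70 (FDR = 0.0907), *Ager* -0.17 (FDR = 0.644), and *Aqp5* -0.15 (FDR = 0.682), whereas DESeq2 called 13 of the 23 lower, *Cav1* included, and limma-voom called 2. As lower over all 14689 genes tested, DESeq2 called 247, limma-voom 35, and edgeR 59. The summed TPM of the list was 7627 to 8949 in treated rats at Year 0.5 and 5492 to 6147 at Year 2, while control rats were at 12458 to 13322 and 11506 to 12364 TPM. Endothelial genes had negative interactions as well, 33 of 38, with a median of -0.42, 0 called by edgeR, and 18 at an unadjusted p below 0.05. Over all 14689 genes tested, 2042 were at that level. The summed TPM of the endothelial list was 5952 to 8520.4 in treated rats at Year 0.5 and 3659.8 to 5149 at Year 2, with control rats at 14017 to 16129.5 and 12086 to 15718. The part of either cell type in the other result was not tested. Of the 23 alveolar type 2 genes 1 was lower, *Lrp2*, an endocytic receptor (-0.44 ± 0.08, FDR = 0.021, 8 of 12 fits), and the median was 0.05.

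*Npw*, which encodes neuropeptide W, had the smallest FDR of all genes. It was at 77.7, 81.9, and 87.6 TPM in control and 89.3, 85.2, and 80.8 TPM in treated rats at Year 0.5, and at 102, 93.1, and 94.2 TPM and 39.2, 41.7, and 41 TPM at Year 2. The groups overlapped at Year 0.5, and at Year 2 every treated rat was far below every control rat (interaction -1.22 ± 0.12, FDR = 0.00141, 12 of 12 fits). *Slc7a10*, a carrier of small neutral amino acids, went from 21.4, 15.8, and 25.3 TPM to 3.17, 3.01, and 5.88 TPM in treated rats, with control rats at 56 to 72.6 TPM and 48.1 to 57.1 TPM (interaction -2.07 ± 0.31, FDR = 0.0144, 11 of 12 fits), and it overlaps *Lrp3* in the annotation. The calcium channel genes *Cacna1d* and *Ryr3* had -0.70 ± 0.11 (FDR = 0.00979, 12 of 12 fits) and -1.44 ± 0.23 (FDR = 0.013, 12 of 12 fits). *Lrrn3*, a leucine-rich repeat membrane protein, fell in both treatments over time, from 24.6, 23.1, and 23.3 TPM to 15.1, 13, and 14.7 TPM in control and from 10.7, 9.67, and 9.73 TPM to 1.93, 2.62, and 2.91 TPM in treated rats (interaction -1.20 ± 0.17, FDR = 0.00813, 12 of 12 fits). *Pdzd2*, *Plagl1*, *Krt76*, and *Tmem44* had -0.73, -1.22, -1.22, and -1.02, and were called in 12, 12, 5, and 4 of 12 fits.

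Metabolic and developmental genes added a few members in each direction. The shares called over all genes tested were 0.742% higher and 0.402% lower. In the phase 1 and 2 metabolism list 1 of 28 was higher, *Ugt1a6*, which also stands in the NRF2 list, and 2 were lower, *Gsta4*, a glutathione transferase for lipid aldehydes, and *Aox1*, aldehyde oxidase, with a median of -0.15. *Gsta4* went from 93.8, 74.5, and 91.3 TPM to 32.7, 45.5, and 43.3 TPM in treated rats, with control rats at 139.6 to 175 TPM and 139 to 161 TPM (interaction -1.0 ± 0.17, FDR = 0.0197, 7 of 12 fits), and *Aox1* had -0.86 ± 0.18 (FDR = 0.0459, 2 of 12 fits). *Acacb*, acetyl-CoA carboxylase 2, was the 1 lower gene of 31 in the cholesterol and fatty acid list, whose median was -0.10 (-0.55 ± 0.11, FDR = 0.0379, 3 of 12 fits). *Gckr*, the regulator of glucokinase, was at 34.7, 30.2, and 29.4 TPM in control and 39.4, 38.3, and 49 TPM in treated rats at Year 0.5, and at 36, 43.4, and 36.8 TPM and 21.7, 21.4, and 28 TPM at Year 2. Its treated rats were above the control rats at Year 0.5 and below them at Year 2 (interaction -1.05 ± 0.17, FDR = 0.0122, 12 of 12 fits). Of the 55 Notch, Wnt, and BMP genes 1 was higher, *Dkk3*, and 2 were lower, the ligand *Wnt3a* among them, with interactions of 0.66 for *Dkk3* and -0.63 for *Wnt3a* and a median of -0.02.

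Of the 22 genes that the study chose for qRT-PCR, 1 was called by edgeR, beside 1.14% of all genes tested, 2 by DESeq2, and 0 by limma-voom. Of all 14689 genes tested, DESeq2 called 540 and limma-voom 99. The gene called by edgeR was *Unc5d*, a netrin receptor, and the median interaction was 0.18, while of the 53 ephrin, semaphorin, slit, and netrin genes it was also the 1 called, with a median of -0.06. *Unc5d* had 28, 23, and 36 counts in control and 12, 23, and 19 counts in treated rats at Year 0.5, and 21, 33, and 22 and 1, 3, and 1 counts at Year 2, so its interaction of -3.02 ± 0.60 (FDR = 0.0296, 4 of 12 fits) rests on few reads. *Spp1*, osteopontin, a matrix protein and cytokine of macrophages, had effects of 8.97 at Year 0.5 and 9.24 at Year 2 and an interaction of 0.26 ± 0.87 (FDR = 0.932). *Mmp12*, the macrophage elastase, had 0.52 ± 0.29 (FDR = 0.472), and *Ccl2*, the monocyte chemokine, had -0.08 ± 0.33 (FDR = 0.95). The ERBB receptor gene *Erbb4* had -1.44 ± 0.62 (FDR = 0.318) and the ligand gene *Btc* had 1.57 ± 0.72 (FDR = 0.353), and of the 14 ERBB genes 0 were called by edgeR and 2 had an unadjusted p below 0.05. Over all 14689 genes tested, 2042 were at that level.

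Several lists leaned to one side with no called member in the edgeR test. The counts at an unadjusted p below 0.05 stand beside 2042 such genes among all 14689 tested. All 28 interferon-stimulated genes had an interaction below 0, with a median of -0.33, and 8 had an unadjusted p below 0.05. Their summed TPM was 3005 to 3759.9 in control and 2688 to 2753 in treated rats at Year 0.5, and 3544 to 4096 and 2173 to 2592 at Year 2. Of the 31 genes of motile cilia tested 30 were below 0, with a median of -0.44 and 1 at an unadjusted p below 0.05, and of the 38 cell cycle genes 32 were below 0, with a median of -0.38 and 6 at that level. Red cell genes, 9 tested, had a median of -0.68 and 0 genes at that level, and their summed TPM was 17259 to 21359 in control rats at Year 0.5 and 29146 to 43288 at Year 2, against 4396 to 11004 and 4884 to 10687 in treated rats. The summed level of heart muscle genes, which are also expressed in the walls of pulmonary veins, ranged over 89.8 to 1076 TPM among the control rats of Year 2 alone, and 0 of 22 were called, with 0 at an unadjusted p below 0.05. The part of red cell or heart muscle content in the interaction was not tested. Of the other lists with no called member by edgeR, the airway secretory and mucin list, 21 tested, had a median of 0.29 and 5 genes at an unadjusted p below 0.05, and the circadian clock list, 20 tested, had a median of -0.19 and 5 genes. The immediate early list, 23 tested, had a median of 0.03 and 2 genes at that level, and the mesothelial list, 12 tested, had -0.04 and 0 genes. In the 12 lists with no called member by edgeR, DESeq2 called 6 endothelial genes, 2 interferon-stimulated genes, 1 cilium gene, and 1 circadian clock gene as lower, 1 B cell gene and 1 airway gene as higher, and 0 in the cell cycle, ERBB, mesothelial, heart muscle, red cell, and immediate early lists, whereas limma-voom called 1 endothelial gene as lower and 0 in the other 11. Beside these counts, DESeq2 called 540 and limma-voom 99 of all 14689 genes tested. In all, 49 of the 168 called genes stood in at least 1 of the 30 lists, not counting the lists added later, and 18 of the 30 held a called gene.

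**Figure D5:**
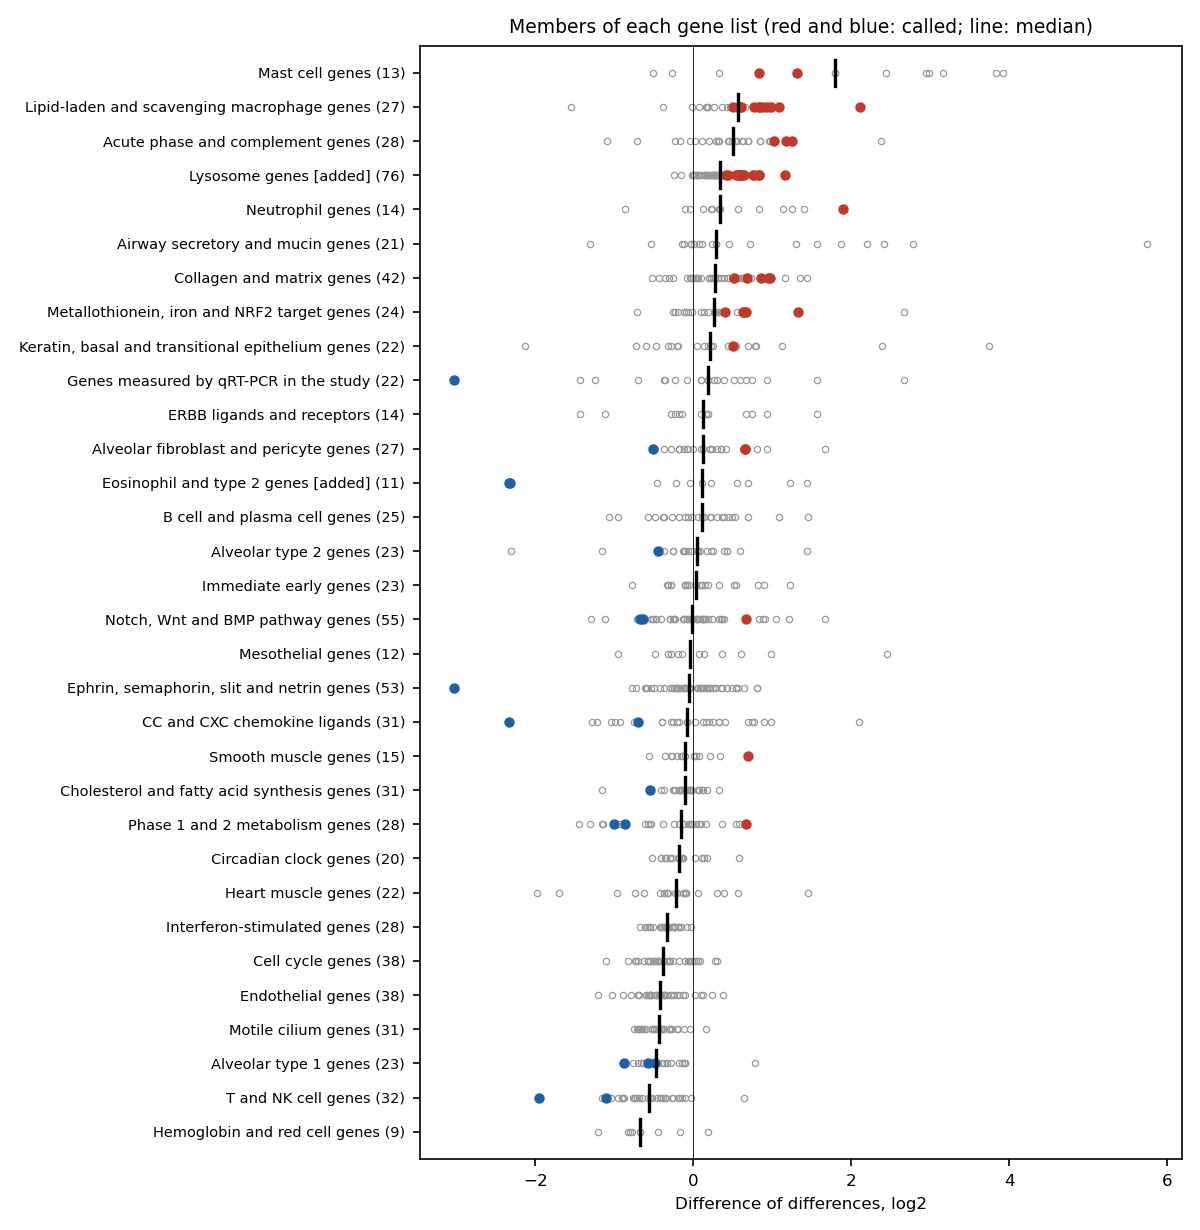
Interaction (x axis, log2 difference of differences) of every tested member of each gene list, with the number tested in parentheses, called genes in red or blue, other genes as open circles, and the list median as a black line. Called members are concentrated in the macrophage (13 of 27) and lysosome (16 of 76) lists, against 168 of 14689 over all genes tested. Mast cell genes have the largest median, 1.80, with 2 of 13 called.

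The called genes were expressed at higher levels than the average gene tested, with a median of 35.5 against 19.9 for the TPM of a gene averaged over the rats, and of 52.1 in the higher and 25 in the lower genes. They lay on all chromosomes that held tested genes except Y and MT, with 0.44% of the tested genes called on X and 1.75% on chromosome 15. Only 6 pairs of neighboring called genes were less than 100000 bases apart, among them *Ctsa*, *Pltp*, and *Mmp9* on chromosome 3 and *Hsd11b1* and *Lamb3* on chromosome 13. In the annotation 16 of the called genes overlapped another entry, among them *Pltp*, *Ugt1a6*, and *Timp1*, and reads may be shared there. On the build of the files, Rnor_6.0, the 5 genes with the smallest FDR were at chr10:14021187-14022452 (*Npw*), chr7:116419578-116425003 (*Ly6i*), chr2:23770721-23852021 (*Lhfpl2*), chr9:14611561-14618013 (*Trem2*), and chr8:111673547-111721333 (*Tf*), where the coordinates span the whole gene. Just inside the threshold was *Gvin1* (-0.77, FDR = 0.0497), and just outside it was *Gusb* (0.48, FDR = 0.0504), a lysosomal glucuronidase. At an unadjusted p below 0.05 there were 2042 genes, and at an FDR below 0.1 there were 423.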

How the data were processed

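RNA was sequenced from the lung accessory lobe of 18 rats, and the 12 rats of Year 0.5 and Year 2 entered the test. The authors mapped the reads with CLC Genomics Workbench and deposited, per gene and rat, the count of reads as whole numbers without normalization and the TPM. The build, Rnor_6.0 (rn6), is named in the submitters' processing notes, and the use of strand and the treatment of reads that map to several places are not given in the sources used here. The deposited RPKM, CPM, and comparison columns (fold changes, p-values) were not used.

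The tables of both years were joined by gene identifier. Counts were fitted in edgeR 4.0.16 (R 4.3.3) with 4 group means, TMM factors, filterByExpr (minimum count 10, minimum total 15), and the robust quasi-likelihood test, with Benjamini-Hochberg adjustment over all 14689 genes and an FDR threshold of 0.05. The SE was derived from the log2 value and the F statistic. The fit was tested on simulated data. TPM served to show levels. The 6 rats of Year 1 were fitted separately. Alternatives used DESeq2 1.42.0, limma 3.58.1 (log2(TPM + 1) and log2(TPM + 0.1)), other scalings and filters, and leaving out each rat. Each group had 3 rats, so precision rests on the spread between 3 animals and total counts of 13297643 to 21130757.

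The genes named were the 15 largest interactions and the 8 smallest FDRs in each direction and up to 4 called members per list and direction, each with a TPM of at least 2 in a group and rats apart at a year, plus the genes of the study's qRT-PCR, and some genes that meet this rule are not reported here. Other genes (*Mertk*, *Heph*, *Slc31a1*, *Aco1*, *Polr1a*, further lysosome and mast cell genes, uncalled marker genes, and genes at the threshold) were picked with their values in view. The members and lists were chosen with earlier results of these data known, and the lysosome and eosinophil lists were added after the values were seen. 3 rats per group are separate animals by the labels. Promoters came from RefSeq (GRCr8).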

Additional observations from a re-analysis of the deposited data

Results flagged for a closer look

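The MWCNT effect differed between Year 2 and Year 0.5 in 168 genes by the test of the difference itself, as described above.

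In 10 of these genes both effects passed the test on their own and had opposite signs. The same count over all genes tested is not given here. The fitted ratio of *Slc45a3* (1.72), *Fcmr* (1.58), *Hdc* (0.83), *Colec12* (0.70), *Dkk3* (0.66), *Hsd11b1* (0.65), *Pltp* (0.65), and *Cpq* (0.50) was below 1 at Year 0.5 and above 1 at Year 2, where the value in parentheses is the interaction on the log2 scale. The treated rats of these 8 genes were all below the control rats at Year 0.5, and at Year 2 the groups overlapped in *Fcmr*, *Hdc*, *Dkk3*, and *Cpq*. The fitted ratio of *Gckr* (-1.05) and *Acacb* (-0.55) was above 1 at Year 0.5 and below 1 at Year 2, and the groups of *Acacb* overlapped at Year 0.5.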

How the results depend on the processing

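The sign of the interaction of the 168 genes was the same under all alternatives that gave a value, while the number called varied. DESeq2 called 540 genes (293 higher, 247 lower, 117 beyond 1 on the log2 scale), all 168 included, and the likelihood ratio test of edgeR called 440 (246 higher, 194 lower, 123 beyond 1), again with all 168. The number fell to 99 with limma-voom (64 higher, 35 lower), 88 with log2(TPM + 1) (50 higher, 38 lower), 51 with log2(TPM + 0.1) (25 higher, 26 lower, 27 beyond 1), and 20 at an FDR below 0.01 (13 higher, 7 lower, 11 beyond 1). Scaling by library size alone gave 59 higher genes and upper quartile factors 69, with totals of 146 and 129. Without a filter 147 genes were called, with 10 counts in every rat 197, with all 18 rats 188, and with a non-robust dispersion, an alternative chosen after seeing the data, 139. Without 1 rat the total ranged from 44 to 289, the higher genes from 25 to 154, the lower genes from 17 to 135, and those beyond 1 from 23 to 80. Among the called genes named, the interaction moved by more than 1.5 times only on the log2(TPM + 1) scale, where it was -1.36 for *Ccl11*, -1.50 for *Ccr3*, 1.16 for *Homer1*, and -0.557 for *Unc5d*. The cause of these and the other changes was not tested.

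With the replicate number as a block, 39 genes were called (27 higher, 12 lower, 21 beyond 1), 36 of them shared with the 168. The labels do not say that equal replicate numbers mark a shared litter, batch, or day, and deviations of same-numbered control and treated rats correlated at -0.154 to 0.0518 over 6 pairs, against -0.179 to 0.183 over the 12 other pairs, so the numbers were not taken as pairs. Of 6 control rats, 2 correlated best with the treated rat of their own number. With 3 rats per group, a wide spread between rats, as in the mast cell proteases, and low counts, as in *Unc5d*, limit the precision.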
